A study of Homo sapiens with 12 samples.

Results

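The 10 genes described here belong to the BCL2 family, which controls the mitochondrial route of apoptosis: BCL2, BCL2L1, BCL2L2, MCL1, BCL2A1, BCL2L11, BID, BAK1, BMF and BIK. They were taken by symbol from a list of family members outside the classical p53 targets, not by how they moved. All 10 were found among 26475 table entries, and all 10 were among the 15353 genes with enough counts to be tested. RNA was measured in A375 cells, an established human melanoma line, under 4 treatments of 24 h with 3 libraries each. The vehicle group received DMSO. The XL413 group received 1 µM of an inhibitor of CDC7, the kinase that fires replication origins. The OF1 group received 1 µM of a bromodomain inhibitor of the BRPF scaffold proteins of histone acetyltransferase complexes. The combination received OF1 and XL413, each at 1 µM. All groups share 1 cell line, and no other line, dose or time is part of the comparison.

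Proteins of the family share BH domains and act on the outer mitochondrial membrane. Survival members (BCL2, BCL-XL from BCL2L1, BCL-W from BCL2L2, MCL-1 and BFL-1 from BCL2A1) bind and hold back their death-promoting relatives. Effectors such as BAK, from BAK1, form the pores that release cytochrome c. BH3-only proteins, here BIM from BCL2L11, BID, BMF and BIK, sense damage or stress and either occupy the survival proteins or activate the effectors. In the melanocyte lineage, BCL2 and BCL2A1 are known as targets of the lineage factor MITF. Much of the control of this family lies in protein stability, splicing and phosphorylation, which gene-level RNA counts do not measure.

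Total counts ran from 30499559 to 36062138 per library. Of the 10 genes listed for the melanocyte lineage, 6 exceeded a mean of 1 CPM, the read count scaled to library size. They were led by AXL, which marks a dedifferentiated melanoma state rather than the lineage, and by SOX10. PMEL, MLANA and DCT lay below 1 CPM and TYR was at 0 in every library. All 14 skeletal muscle fibre genes listed also exceeded 1 CPM. Their summed level was 85.8 to 229 CPM in DMSO, 127 to 278 in XL413 and 123 to 286 in OF1. In the combination it was 96.0, 22.1 and 33.3 CPM in replicates 1, 2 and 3. Of 7 fibroblast genes 5 fell in the combination against DMSO, where 5.07% of all genes tested fell. Their summed level was 58.1 to 158 CPM in the combination against 213 to 269 in DMSO. Of 4 keratinocyte genes tested 2 fell in OF1 and 3 in the combination against DMSO. Over all genes tested 1.15% passed in OF1 in either direction, and 5.07% fell in the combination. The summed level of the 6 keratinocyte markers listed was 82.4 to 103 CPM in DMSO, 105 to 112 in XL413, 79.8 to 106 in OF1 and 68.2 to 85.2 in the combination. In bulk RNA, fewer cells of a type and less RNA per cell cannot be told apart.

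Transcript levels per kilobase of exon separated the family into abundant and scarce members, and MCL1 led. In DMSO, MCL1 stood at 104 ± 4.0 CPM per kilobase (SD, n = 3), BCL2L1 at 32.3 ± 0.202 and BAK1 at 17.1 ± 0.943. BCL2L2 followed at 9.12 ± 0.143 and BID at 7.28 ± 0.153. The other 5 lay far lower, from BCL2L11 at 1.46 ± 0.126 through BCL2A1 at 1.03 ± 0.250, BIK at 0.947 ± 0.0770 and BCL2 at 0.669 ± 0.0705 to BMF at 0.231 ± 0.0579. Among neighbours in this order, only the DMSO libraries of BCL2A1 and BIK overlapped. Of the summed level per kilobase of the 5 survival genes, MCL1 made up 70.7 ± 0.753% in DMSO, 71.4 ± 0.339% in XL413, 72.8 ± 0.386% in OF1 and 71.2 ± 1.33% in the combination. Lengths were the union of exons in GENCODE v29, which may differ from the annotation the authors counted on. With the longest transcript as length, BID passed BCL2L2 (13.0 against 10.6 CPM per kilobase), BCL2 passed BIK, and the MCL1 share in DMSO was 68.2%.

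**Figure D1:**
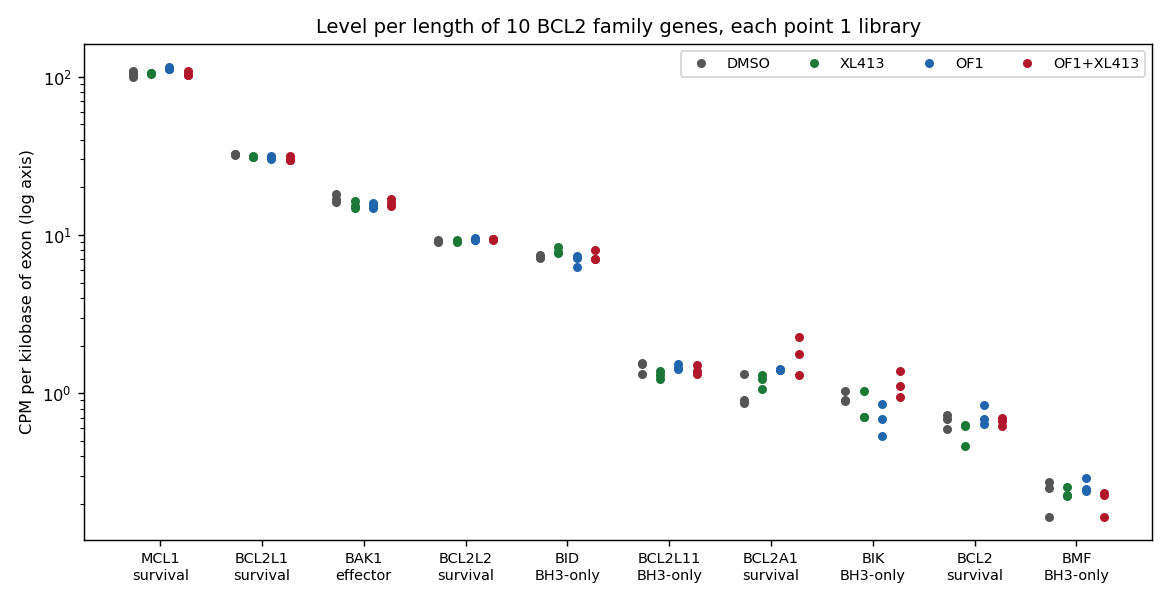
Level of each of the 10 genes in CPM per kilobase of exon (log axis), with each point 1 library and the colour its treatment. In the means of the DMSO libraries MCL1 stands highest at 104 and BMF lowest at 0.231, and the order is set by the gene far more than by the treatment.

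Across treatments the family changed little. Changes were tested with edgeR's quasi-likelihood test on rounded counts, with Benjamini-Hochberg adjustment over all genes tested and a threshold of 0.05 on the adjusted p. The 3 comparisons with DMSO share the DMSO libraries. XL413 against DMSO gave a call for 0 of the 10 genes, where 2.80% of all genes tested passed. OF1 against DMSO also gave 0 of 10, where 1.15% of all genes passed. The combination against DMSO gave 1 of 10, BCL2A1, which rose, where 10.7% of all genes passed and 5.65% rose. One gene in 10 is close to that background.

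At an unadjusted p under 0.05 the family counts were 1 of 10 in XL413 (18.6% of all genes), 2 of 10 in OF1 (14.4%) and 2 of 10 in the combination (25.6%). DESeq2 and limma-voom both gave 0 members in XL413, and in OF1 limma-voom gave 0 and DESeq2 gave 1, MCL1. In both comparisons DESeq2 gave no adjusted p for BCL2A1, BMF and BIK, so its counts do not cover these genes. The median log2 change over the 10 genes was -0.03 in XL413, 0.02 in OF1 and -0.01 in the combination. Over all genes tested these medians were 0.00, 0.00 and -0.00. The median absolute log2 change was 0.14, 0.12 and 0.07 for the family against 0.09, 0.08 and 0.10 for all genes. The 95% interval of the change lay within 1.5-fold in either direction for 8 of the 10 genes in XL413 and for 7 of 10 in OF1 and in the combination. It lay within 2-fold for 10, 9 and 9 of the 10. Precision thus differed by gene: the intervals were narrow for abundant MCL1 and BCL2L1 and wide for BCL2A1, BMF and BIK, which had 17 to 79 counts per library.

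**Figure D2:**
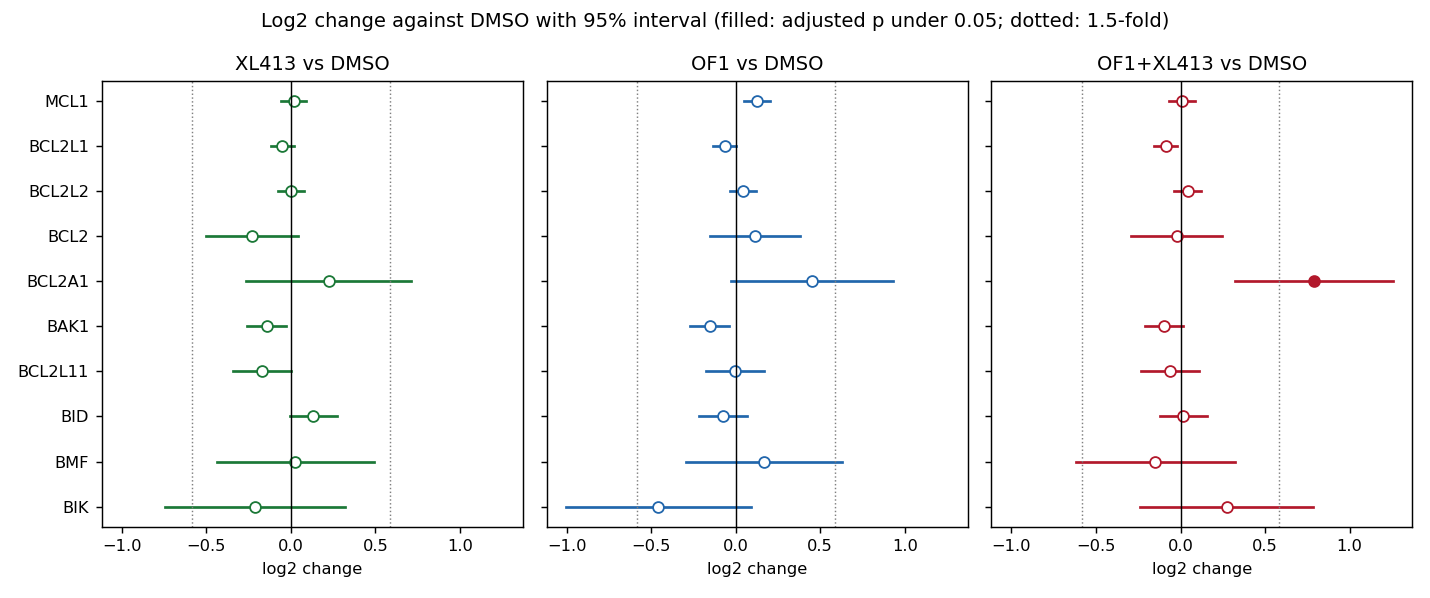
Log2 change against DMSO of the 10 genes in XL413, OF1 and the combination, with 95% intervals from edgeR's fit. Only BCL2A1 in the combination, at 0.79, passed the adjusted threshold, and the intervals of BMF, BIK and BCL2A1 are the widest.

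BCL2A1 encodes BFL-1, a survival protein that binds BIM and BID and is best known as an NF-kB target in blood cells and as a lineage survival gene in melanoma. It was the only member called in the edgeR fit of all libraries, and only in the combination against DMSO. It lies on chromosome 15 at 79960892 to 79971196 on the minus strand (RefSeq, GRCh38.p14). The 250 bases before its start, chr15:79971197-79971446, are printed 5′ to 3′ on the minus strand because this is the promoter of the called gene. Of 2 factors whose motifs it holds, the MITF gene fell and the ATF4 gene rose in the combination (described with the transcription factors). Whether either factor acted on BCL2A1 was not tested. Capitals mark, in order, TGATGCAA, a match to the C/EBP-ATF element TGATGNAA, and CATGTG, an E-box bound by MITF.

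BCL2A1: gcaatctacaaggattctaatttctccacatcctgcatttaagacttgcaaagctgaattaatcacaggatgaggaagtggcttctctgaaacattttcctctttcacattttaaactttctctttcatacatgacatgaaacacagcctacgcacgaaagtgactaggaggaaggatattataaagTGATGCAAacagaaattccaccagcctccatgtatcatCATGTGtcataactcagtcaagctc

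Both strands were searched in this window for each motif, and the 2 matches do not overlap. CATGTG was present in 9.417% of 35116 promoters of the same length and TGATGNAA in 3.144%. Of the 10 genes, 7 had a promoter in the RefSeq table. The shares count single promoters, whereas a gene was counted if any of its promoters matched. BID had 5 promoters and BCL2A1 had 1. CATGTG occurred in those of BCL2A1 and BID, the E-box CACGTG (6.345% of all promoters) in BID only, and TGATGNAA in BCL2A1 only. A narrow form of the NF-kB motif (1.731%) and the AP-1 motif TGANTCA (6.573%) matched none of the 7. That NF-kB form fixed some bases that vary among known sites. Other forms were not searched, so NF-kB sites in these promoters are not excluded. The BCL2A1 window had 38.8% G and C, against a median of 58% over all promoters, and 11.41% of promoters were at or below it. A match describes letters only and shows neither binding nor its absence.

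BCL2A1 measured 0.989, 0.939 and 1.43 CPM in the DMSO libraries and 1.42, 1.15 and 1.34 in XL413. OF1 gave 1.54, 1.53 and 1.53 CPM, and the combination 1.43, 1.93 and 2.46. The OF1 libraries all lay above the DMSO libraries, whereas the lowest combination library fell just below the highest DMSO library. Against DMSO the combination was 1.73-fold higher, a log2 change of 0.79 ± 0.22 (SE; 95% interval 0.32 to 1.26; edgeR, adjusted p = 0.0325). The change was 0.22 ± 0.23 in XL413 (adjusted p = 0.649) and 0.45 ± 0.22 in OF1 (adjusted p = 0.383). The combination differed from XL413 by 0.57 ± 0.21 (adjusted p = 0.185), and it differed from OF1 by 0.34 ± 0.21 (adjusted p = 0.368). A rise in the combination beyond either inhibitor alone was therefore not shown.

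These values rested on few reads, 33, 32 and 48 in DMSO against 46, 69 and 79 in the combination. Over 19 alternative settings the log2 change ran from 0.35 to 1.00 and the adjusted p from 0.00861 to 0.557, and 8 of them lost the call. It was lost without DMSO replicate 1 (0.71, adjusted p = 0.0994), DMSO replicate 2 (0.68, 0.134), combination replicate 2 (0.79, 0.0761) or combination replicate 3 (0.58, 0.129). It was also lost with only the DMSO and combination libraries in the edgeR fit (0.79, adjusted p = 0.0925) and in a test against a 1.2-fold change (adjusted p = 0.557). The combination libraries with most BCL2A1, replicates 2 and 3, were those with the lowest muscle and fibroblast sums. With the muscle genes' mean level as a covariate the change was 0.75 (edgeR, adjusted p = 0.271). That covariate is itself lowest in those libraries, and with it the genes called in this comparison went from 1645 to 280. Without both of those libraries the BCL2A1 change was 0.35, from 1 combination library. Whether the level of muscle transcripts bears on BCL2A1 was not tested. All 5 blood cell markers listed stayed under 1 CPM. Their sum was 0.0623 to 0.869 CPM, and HBB was at 0 in every library.

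**Figure D3:**
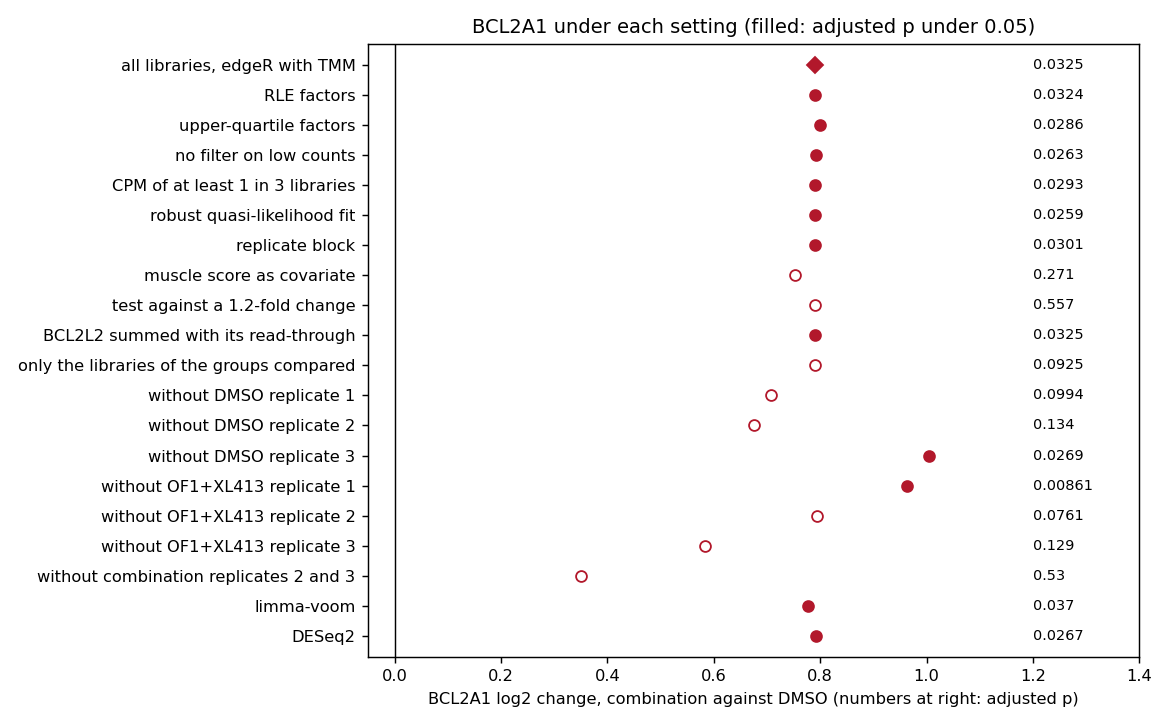
Log2 change of BCL2A1 in the combination against DMSO (horizontal axis) under each processing setting (vertical axis), with the adjusted p printed at the right and filled points for those under 0.05. All 20 points lie above 0, from 0.35 to 1.00, and 8 of them are open.

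MCL1, a short-lived survival protein needed by many melanoma cells, was the most abundant member and moved within a narrow range. Its DMSO libraries had 438, 451 and 473 CPM, XL413 had 461, 459 and 457, OF1 had 490, 488 and 507, and the combination had 477, 447 and 446. The 3 OF1 libraries lay above all 9 others, a pattern seen for 1.78% of all genes. OF1 was 1.09-fold above DMSO, a log2 change of 0.12 ± 0.04 (95% interval 0.05 to 0.20), which did not pass (edgeR, adjusted p = 0.11) but did with DESeq2 (0.13, adjusted p = 0.035). The change was 0.02 ± 0.04 in XL413 (adjusted p = 0.859) and 0.01 ± 0.04 in the combination (95% interval -0.07 to 0.08, adjusted p = 0.911).

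BCL2L1, whose long product BCL-XL is a major survival protein of solid tumours, was lower in every treated library by a few percent. It measured 107, 108 and 106 CPM in DMSO, 102, 103 and 104 in XL413, 100.4, 104 and 103 in OF1, and 99.1, 99.0 and 104 in the combination. All 9 treated libraries lay below all 3 DMSO libraries, which held for 3.19% of all genes. The log2 changes were -0.05 ± 0.03, -0.07 ± 0.03 and -0.09 ± 0.03 in XL413, OF1 and the combination, and none passed (edgeR, adjusted p = 0.414, 0.376 and 0.0949). Without combination replicate 3 the change in the combination was -0.12 and passed (adjusted p = 0.0405). Gene-level counts do not separate BCL-XL from the short, death-promoting splice form BCL-XS.

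BCL2L2, the source of BCL-W, was the steadiest member, with a highest-to-lowest ratio of 1.07 over the 12 libraries. DMSO libraries had 38.7, 37.6 and 38.3 CPM, XL413 38.1, 37.6 and 38.9, OF1 38.8, 39.0 and 40.3, and the combination 38.9, 39.3 and 39.8. The OF1 and combination libraries lay just above those of DMSO, with log2 changes of 0.04 in both (adjusted p = 0.637 and 0.522). Its reads are shared with the read-through gene BCL2L2-PABPN1, which starts at the same place, so its level depends on how the authors' counting split them. With both genes summed, the direction in OF1 turned, to a log2 change of -0.07 (adjusted p = 0.504), and it was 0.05 in the combination (adjusted p = 0.496, both by edgeR).

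BCL2, the founding survival gene of the family and the target of the drug venetoclax, was scarce. It had 6.95, 8.57 and 8.10 CPM in DMSO, 7.29, 5.43 and 7.39 in XL413, 9.90, 7.55 and 8.08 in OF1, and 8.17, 7.82 and 7.26 in the combination. All groups overlapped with DMSO, and the lowest value was in XL413 and the highest in OF1. The log2 changes were -0.23 ± 0.13, 0.11 and -0.02 in XL413, OF1 and the combination (edgeR, adjusted p = 0.36, 0.73 and 0.936).

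BAK1, the pore-forming effector, averaged lower in each treated group. It measured 40.0, 36 and 37.3 CPM in DMSO, 32.7, 36.1 and 33.9 in XL413, 35.0, 32.9 and 33.8 in OF1, and 33.5, 35.1 and 37.2 in the combination. The OF1 libraries lay below all DMSO libraries, and the other treated groups overlapped with DMSO. The log2 changes were -0.14 ± 0.05 (95% interval -0.26 to -0.03), -0.15 ± 0.05 (-0.27 to -0.04) and -0.10 ± 0.05, and none passed (edgeR, adjusted p = 0.166, 0.199 and 0.274).

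BID, which is cut by caspase-8 and so links death receptors to mitochondria, was the most abundant BH3-only member. It had 33.1, 32.3 and 31.7 CPM in DMSO, 34.9, 37.4 and 34.3 in XL413, 27.7, 32.0 and 32.5 in OF1, and 31.2, 31.4 and 35.8 in the combination. The XL413 libraries lay above all DMSO and all OF1 libraries. The change in XL413 was 0.13 ± 0.06 (adjusted p = 0.291), and it was -0.08 in OF1 (0.649) and 0.02 in the combination (0.905), all by edgeR.

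BCL2L11 encodes BIM, a strong activator that MAPK signalling keeps low in melanoma. It measured 8.78, 10.3 and 10.1 CPM in DMSO, 8.18, 9.17 and 8.65 in XL413, 10.1, 9.44 and 9.61 in OF1, and 10.0, 9.17 and 8.85 in the combination. Each treated group overlapped with DMSO, and XL413 lay below OF1 in every library. The log2 changes were -0.17 ± 0.08, -0.00 and -0.06 in XL413, OF1 and the combination (edgeR, adjusted p = 0.275, 0.991 and 0.686).

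BMF, which senses loss of attachment, and BIK, a BH3-only protein of the endoplasmic reticulum, were the scarcest per library along with BCL2A1, with 30 to 50 and 17 to 42 counts per library. BMF had 0.899, 1.38 and 1.49 CPM in DMSO, 1.39, 1.21 and 1.23 in XL413, 1.3, 1.59 and 1.35 in OF1, and 1.24, 0.897 and 1.28 in the combination. The DMSO libraries alone spanned almost the whole range, and the log2 changes of 0.03, 0.17 and -0.15 did not pass (edgeR, adjusted p = 0.969, 0.771 and 0.732). BIK had 0.869, 0.851 and 0.986 CPM in DMSO, 0.987, 0.671 and 0.672 in XL413, 0.652, 0.814 and 0.510 in OF1, and 0.901, 1.07 and 1.31 in the combination. The OF1 libraries were the lowest group for BIK and lay below all DMSO and all combination libraries. The change in OF1 was -0.46 ± 0.26 (95% interval -1.0 to 0.09, adjusted p = 0.454), and it was -0.21 ± 0.25 in XL413 (0.698) and 0.27 ± 0.24 in the combination (0.522), all by edgeR.

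**Figure D4:**
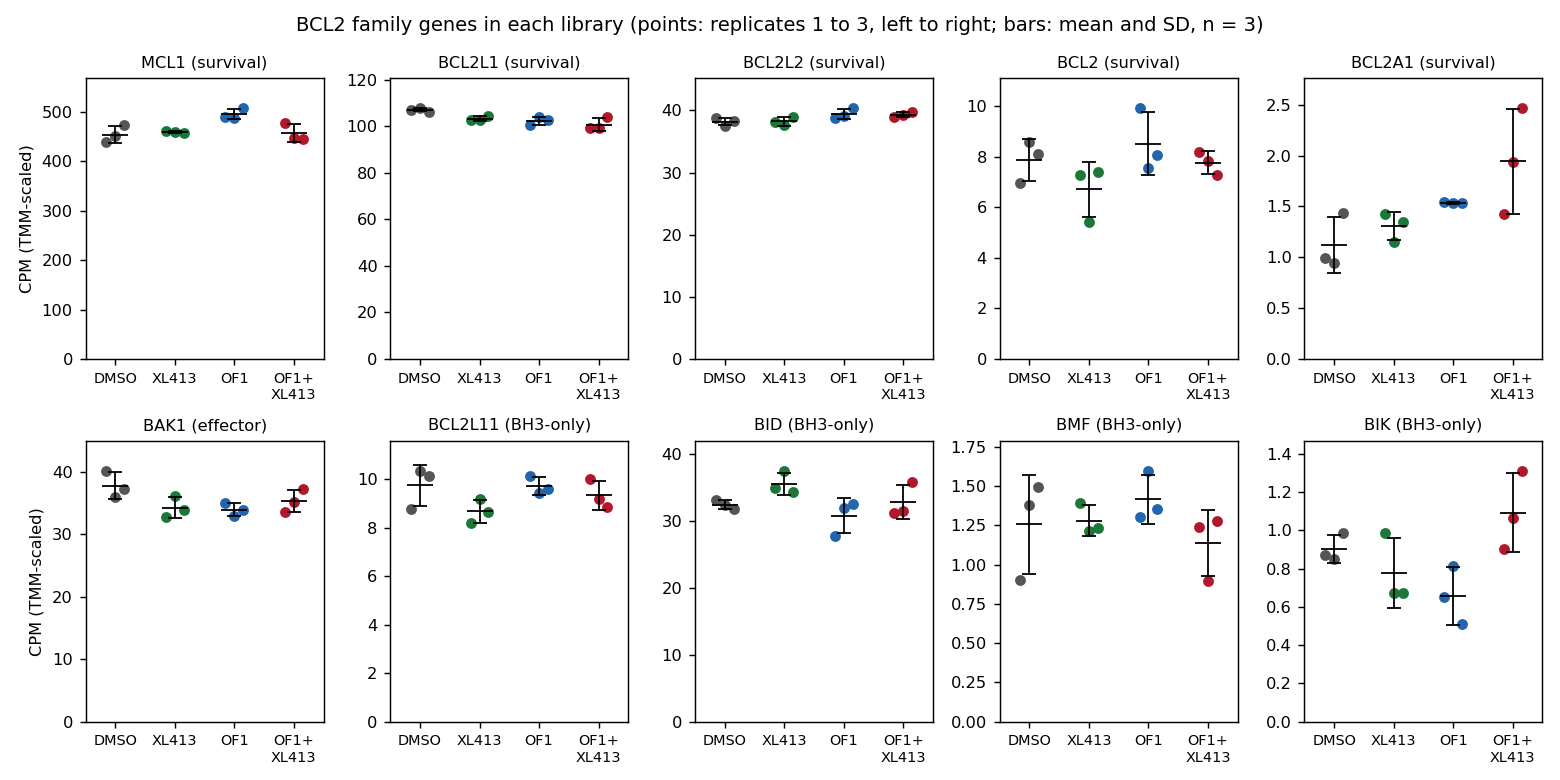
CPM (vertical axes, each from 0) of the 10 genes in every library, grouped by treatment on the horizontal axis, with bars for the mean and SD of 3 libraries. The 9 treated libraries of BCL2L1 sit just under DMSO, the OF1 libraries of MCL1 sit above the rest, and BCL2A1 spreads from 1.43 to 2.46 in the combination.

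Groups that do not overlap were common for all genes. Against DMSO, 2 of the 10 genes did not overlap in XL413 (BCL2L1 and BID), where 27.8% of all genes did not, and 2 in the combination (BCL2L1 and BCL2L2), where 27.6% did not. In OF1 there were 6 of 10 (BCL2L1, BCL2L2, MCL1, BCL2A1, BAK1 and BIK), where 22.0% of all genes did not overlap. The separations in OF1 were small for the abundant genes, and none of these 6 passed the adjusted threshold. The separation of BCL2L2 is that of its own counts, without its read-through. Among the treated groups, 2 of 10 did not overlap between the combination and XL413 (19.4% of all genes), 3 between the combination and OF1 (22.5%) and 5 between XL413 and OF1 (28.6%).

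Comparisons among the treated groups gave no call either. OF1 added to XL413 gave 0 of 10 genes (3.41% of all genes passed), XL413 added to OF1 gave 0 of 10 (5.50%), and XL413 against OF1 gave 0 of 10 (6.45%). At an unadjusted p under 0.05 there were 1, 2 and 3 members, where 16.8%, 22.5% and 22.6% of all genes passed. For MCL1, the combination lay below OF1 by a log2 change of -0.12 ± 0.04 (adjusted p = 0.0688) and XL413 lay below OF1 by -0.11 ± 0.04 (adjusted p = 0.081). DESeq2 called the first of these (-0.12, adjusted p = 0.0375), as did edgeR without combination replicate 1 (-0.15, adjusted p = 0.00953), and edgeR with only the XL413 and OF1 libraries called the other (-0.11, adjusted p = 0.0383). BIK was 1.66-fold higher in the combination than in OF1 (0.73 ± 0.25, 95% interval 0.19 to 1.27, adjusted p = 0.0999). Between XL413 and OF1, BID differed by 0.21 ± 0.07 (edgeR, adjusted p = 0.0701) and passed with DESeq2 (adjusted p = 0.047), and BCL2 differed by -0.34 ± 0.13 (edgeR, adjusted p = 0.125).

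Whether the combination departed from what the 2 single changes add up to was tested as an interaction. It passed for 0 of the 10 genes, and for 0% of all genes tested. At an unadjusted p under 0.05 there were 3 members, MCL1, BAK1 and BIK, where 10.2% of all genes passed, and DESeq2 and limma-voom gave 0 members after adjustment. The departure was -0.13 ± 0.05 for MCL1, 0.20 ± 0.08 for BAK1 and 0.94 ± 0.35 for BIK (edgeR, adjusted p = 0.354, 0.357 and 0.349). A test of any difference among the 4 groups also passed for 0 members, where 12.6% of all genes passed. The smallest adjusted p was 0.0619 for MCL1, followed by 0.0806 for BCL2A1. At an unadjusted p under 0.05 this test gave 4 members (30.3% of all genes), limma-voom gave 0 after adjustment, and DESeq2 gave 1, MCL1 (adjusted p = 0.0184).

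The genes whose log2 CPM was most like that of BCL2A1 over the 12 libraries, among 12345 genes searched, were CATSPER1 (Pearson r = 0.90), STK39 (0.88) and HOMER2 (0.87). These values describe libraries that share treatments and depth, and the highest of so many carry no test. CATSPER1 encodes a sperm calcium channel subunit. It measured 6.51, 5.98 and 6.96 CPM in DMSO and 7.14, 8.47 and 10.1 in the combination, a log2 change of 0.40 ± 0.11. The change was 0.32 ± 0.08 for HOMER2, a scaffold protein gene, and 0.11 ± 0.06 for STK39, a kinase of ion transport control. These genes were picked by likeness to BCL2A1, which averaged highest in the combination, so their changes there are not separate evidence.

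The rest of the death machinery was read from further lists. The p53 targets BAX, BBC3 and PMAIP1 are among 10 other BCL2 family genes tested. Of these 10, 1 rose in the combination, where 5.65% of all genes rose, and 0 in XL413 or OF1. It was PMAIP1, the gene of the BH3-only protein NOXA, which binds MCL-1 and BFL-1. PMAIP1 had 38.9, 40.0 and 40.5 CPM in DMSO, 38.7, 38.4 and 42.2 in XL413, 46.0, 43.6 and 45.0 in OF1, and 50.3, 49.8 and 50.1 in the combination. The combination libraries were above all others and the OF1 libraries above DMSO and XL413. Against DMSO PMAIP1 rose by 0.33 ± 0.04 in the combination (edgeR, adjusted p = 0.000269), while the value was 0.17 in OF1 (0.0683) and -0.00 in XL413. BCL2L12 rose in the combination against OF1 only (0.23 ± 0.06, adjusted p = 0.0395).

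No gene of 10 caspase and apoptosome genes or of 9 death receptor and adaptor genes passed in any comparison by edgeR. Against DMSO, 2.80% of all genes passed in XL413, 1.15% in OF1 and 10.7% in the combination. A count of 0 among so few genes is near that background. Among 8 inhibitor-of-apoptosis genes and their antagonists, 1 rose in XL413 and 2 in the combination. Of all 15353 genes tested, 193 rose in XL413 and 5.65% rose in the combination. BIRC5, the gene of survivin, which also acts in mitosis, rose by 0.21 ± 0.03 in XL413 (adjusted p = 0.00773) and by 0.24 ± 0.03 in the combination (0.000639). BIRC2, which encodes cIAP1, rose by 0.16 ± 0.04 in the combination (adjusted p = 0.0302). Of 10 genes of the mitochondrial outer membrane and mitochondrial dynamics, 0 passed against DMSO. ENDOG, a mitochondrial nuclease, was lower in the combination than in XL413 by a log2 change of -0.49 ± 0.10 (edgeR, adjusted p = 0.0141). It was also called higher in XL413 than in OF1. Of all genes, 3.41% passed in the first of these comparisons and 6.45% in the second. ENDOG averaged 13.9 CPM in DMSO, 17.1 in XL413, 13.3 in OF1 and 12.2 in the combination.

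Of 8 genes for turnover or partners of the members, TPT1, whose product stabilises MCL-1, rose by 0.18 ± 0.04 in XL413 (adjusted p = 0.0325) and by 0.28 ± 0.04 in the combination (0.000801). DYNLL1, a dynein light chain that binds BIM, rose by 0.21 ± 0.06 in the combination (edgeR, adjusted p = 0.0429). None of these 8 passed in OF1, where 1.15% of all genes passed. In the combination 5.65% of all genes rose.

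Of 11 transcription factors known to act on family genes, 0 passed in XL413 or OF1, and in the combination 1 rose and 2 fell, where 5.65% of all genes rose and 5.07% fell. MITF was at 42.8, 43.1 and 44.4 CPM in DMSO and at 34.9, 35.6 and 32.8 in the combination, with no overlap. It fell by 0.33 on the log2 scale (SE 0.05, edgeR, adjusted p = 0.00173), while BCL2A1 rose and BCL2 had a change of -0.02. JUN, an AP-1 subunit, fell by 0.18 (SE 0.05, adjusted p = 0.0219). ATF4, a stress factor that can act on PMAIP1, rose by 0.17 ± 0.04 (adjusted p = 0.0139). Whether ATF4 acted on PMAIP1 here was not tested. E2F1 differed only against OF1, where it was higher in XL413 (0.18, adjusted p = 0.0142) and in the combination (0.17, adjusted p = 0.0254).

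**Figure D5:**
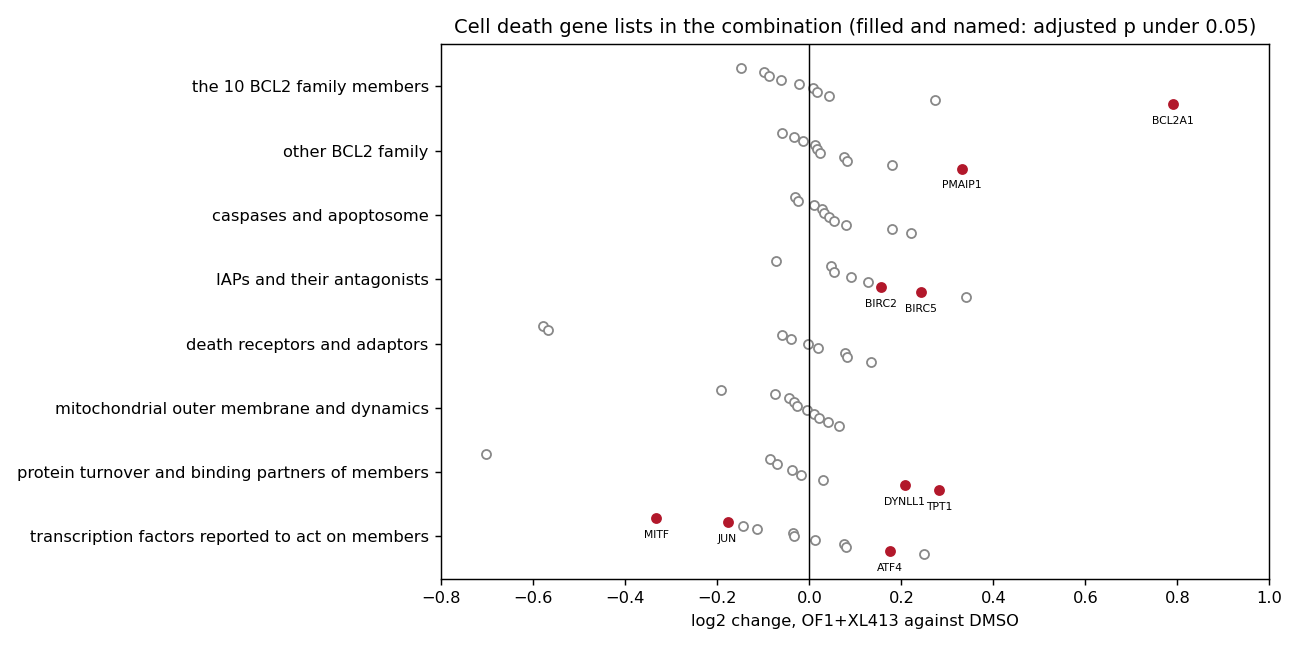
Log2 change in the combination against DMSO (horizontal axis) of each tested gene of the 8 cell death lists (vertical axis), with filled and named points where the adjusted p was under 0.05. BCL2A1 at 0.79 and PMAIP1 at 0.33 stand at the right of their lists, and most genes lie near 0.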

How the data were processed

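Poly(A) RNA was sequenced from 12 libraries, 3 per group, with strand kept through dUTP, per the labels' protocols. Each value the authors deposited is an expected count of a gene symbol, an estimate with possible fractions and no scaling. The submitters' processing notes name Bowtie2 2.1.0, RSEM 1.2.15 and hg38. Their settings and the annotation are not given in the sources used. Fractions stood in 10.6% of values, and all values were rounded. RSEM divides reads among genes that share sequence, so BCL2L1 and BCL2L2 have counts that are not whole.

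Genes were filtered with filterByExpr (15353 kept) and scaled by TMM, and CPM uses those library sizes. 1 edgeR 4.0.16 quasi-likelihood fit (R 4.3.3) over 12 libraries, with 1 mean per group, gave all 8 contrasts, adjusted by Benjamini-Hochberg over all genes at a threshold of 0.05. The SE is the log2 change over the square root of F. The script was tested on simulated data. Alternatives used DESeq2 1.42.0, limma-voom (limma 3.58.1), other scaling and filters, a robust fit, a replicate block, left-out libraries, a 1.2-fold test and a muscle covariate (the mean log2 CPM of the muscle list). A longer gene length and BCL2L2 summed with its read-through were added after seeing the data. "Biological replicates" is the submitters' term. No label says that cultures were separate, and p-values therefore reflect only how these libraries vary, which may be technical.

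The members and lists were chosen with earlier results of these data known, and the muscle, fibroblast and keratinocyte lists follow variation seen in them. All 10 members are named. Other lists give up to 4 genes each, those of smallest any-difference p among genes that passed in at least 1 comparison. Likeness used log2 CPM (prior count 2) among genes of average log2 CPM of at least 1, for members that passed, and names the 3 highest. Promoters and positions are RefSeq on GRCh38.p14, matched by symbol. One marker of a list is not reported here by name.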

Additional observations from a re-analysis of the deposited data

Results flagged for a closer look

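For 3 members the effect of 1 inhibitor had opposite signs without and with the other, with every treated library on one side of its control mean in the first setting and on the opposite side in the second. The share of all genes that meet this rule was not counted, so the number of members meeting it is no result about the family. None passed the test of the difference after adjustment (edgeR). For MCL1, the effect of XL413 was a log2 change of 0.02 in vehicle and -0.12 in the presence of OF1, a difference of -0.13 ± 0.05 (SE; adjusted p = 0.354). For BIK, the effect of OF1 was -0.46 in vehicle and 0.49 in the presence of XL413, a difference of 0.94 ± 0.35 (adjusted p = 0.349), on 17 to 42 counts per library. For BMF, the effect of OF1 was 0.17 in vehicle and -0.17 in the presence of XL413, a difference of -0.34 ± 0.31 (adjusted p = 0.764).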

How the results depend on the processing

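Of 728 alternative values of 39 member changes, 683 kept their direction and, where an adjusted p was given, their side of the threshold. Another 8 lost a call (all BCL2A1 in the combination against DMSO), 6 gained one and 31 changed sign. DESeq2 gave no adjusted p for BCL2A1, BMF and BIK in XL413 or OF1 against DMSO. Every value that changed sign had passed in neither setting, with sizes up to 0.27, and the cause was not tested. The count of members called in the combination against DMSO went from 1 to 0 with the muscle covariate, in the 1.2-fold test, with only the groups compared and without combination replicates 2 and 3, and it ran from 0 to 1 when single libraries were left out. It went from 0 to 1 with DESeq2 in OF1 against DMSO (MCL1), in the combination against OF1 (MCL1) and in XL413 against OF1 (BID), and in the last also with only the groups compared (MCL1). Leaving out single libraries gave 0 to 1 in the combination against OF1. For any difference it went from 0 to 1 (MCL1) with the robust fit, with DESeq2 and without combination replicates 2 and 3, and it ran from 0 to 2 over left-out libraries (MCL1 and BCL2A1 without combination replicate 1). The MCL1 share of survival transcripts in DMSO went from 70.7% to 68.2% with the longest transcript as length.

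Changes of sign against DMSO were these. In XL413, BCL2L2 was -0.0106 when summed with its read-through, and with the muscle covariate MCL1 was -0.0075 and BMF -0.0847. In OF1, BCL2L2 was -0.0666 when summed, and BCL2L11 was 0.000407 with upper-quartile factors and 0.000742 with limma-voom. In the combination without replicates 2 and 3, BCL2 was 0.0537, BCL2L11 0.0378, BID -0.0536 and BIK -0.000986, and BMF was 0.23 with the muscle covariate. Leaving out single libraries gave ranges across 0. In XL413 these were -0.0160 to 0.00962 for BCL2L2, -0.0131 to 0.0408 for MCL1 and -0.17 to 0.16 for BMF. In OF1 they were -0.0129 to 0.188 for BCL2, -0.0743 to 0.0388 for BCL2L11 and -0.0245 to 0.306 for BMF. In the combination they were -0.106 to 0.0404 for BCL2, -0.0286 to 0.0354 for MCL1, -0.0536 to 0.0486 for BID and -0.341 to 0.00311 for BMF.

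Replicate numbers did not pair the libraries: over 18 same-number pairs r ran from -0.16 to 0.20, 1 pair exceeded 0.1, and 1 of 12 libraries correlated best with its own number. With the replicate block the member counts were 0 in XL413 and OF1 and 1 in the combination against DMSO (BCL2A1, 0.79, adjusted p = 0.0301), and over all genes 361, 126 and 1573 passed against 430, 176 and 1645 without it. Over all settings the genes called against DMSO ran from 5 to 1394 in XL413, 5 to 357 in OF1 and 34 to 2113 in the combination. For non-additivity they ran from 0 to 362, the highest without combination replicate 1. Depth limits BCL2A1, BMF and BIK.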

Other observations

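The summed level per kilobase of the 5 survival genes was 5.45 ± 0.282 times that of the 5 death genes in DMSO (SD, n = 3), 5.70 ± 0.247 in XL413, 6.31 ± 0.0670 in OF1 and 5.64 ± 0.406 in the combination. The OF1 libraries spanned 6.26 to 6.39 and the other 9 libraries 5.13 to 6.05. MCL1 supplied most of the survival sum and BAK1 most of the death sum. That death sum holds only BAK1, BCL2L11, BID, BMF and BIK. It leaves out other death-promoting members measured, among them BAX, BBC3 and PMAIP1. In raw CPM, BAX averaged 116 in DMSO and 107 in OF1, against 37.8 and 33.9 for BAK1. PMAIP1 averaged 39.8 in DMSO and 44.9 in OF1. The ratio thus does not cover the whole family. It was computed after seeing the data and carries no test.

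BCL2L2-PABPN1, the read-through gene that begins at the BCL2L2 start and runs into the poly(A)-binding protein gene PABPN1, was more abundant in raw CPM than BCL2L2 itself. It had 61.2 ± 3.37 CPM in DMSO, 60.4 ± 0.980 in XL413, 55.5 ± 3.47 in OF1 and 63.5 ± 5.49 in the combination, against 38.2 ± 0.600 CPM for BCL2L2 in DMSO. It passed in no comparison, and how reads were split between the pair of genes depends on the authors' counting.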
